A study of Mus musculus with 7 samples.

Results

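The genes described here are the PAR bZIP transcription factors Dbp, Tef and Hlf and the clock repressors Per1, Per2, Per3, Nr1d1, Nr1d2, Ciart and Bhlhe41, chosen by symbol. Of these 10 genes, 9 were among the 17537 genes of the kidney table, and the expression of Per3 was not analysed here. All 9 passed the filter on low values and were tested among 13976 genes. The kidney RNA came from 7 libraries in 3 groups, all from C57BL/6 mice aged 8 to 10 weeks at the start, which the sample labels give as male. Control mice (C, n = 3, replicates 2, 8 and 9) received no streptozotocin. DM-22 mice (n = 2) received streptozotocin, a toxin of the insulin-producing beta cells, intraperitoneally at 60 mg/kg on 5 days and stayed hyperglycaemic until week 22. DM+SGLT2i mice (n = 2) received the same injections and, after 16 weeks, dapagliflozin, an inhibitor of the glucose transporter SGLT2 of the proximal tubule, given for 6 weeks with the drinking water at a dose of 25 mg/kg. The model therefore joins hyperglycaemia with exposure to the toxin in both diabetic groups. Replicates are taken as separate mice, which the labels do not state outright, and p-values measure the spread between these libraries. The hour of the day at which kidneys were taken is not given in the sources used here.

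The circadian clock is a transcriptional feedback loop that runs in nearly every cell, the tubular epithelium included. The activators ARNTL (BMAL1) and CLOCK, or NPAS2, bind E-box sequences and switch on the Per, Cry and Nr1d genes. PER and CRY proteins then block their own activators, while the nuclear receptors REV-ERB-alpha (Nr1d1) and REV-ERB-beta (Nr1d2) repress Arntl, so that Arntl transcripts are high when those of Dbp and Nr1d1 are low. Ciart (CHRONO) and Bhlhe41 (DEC2) are further repressors of the activator pair. The PAR bZIP factors DBP, TEF and HLF are driven by the same E-boxes and carry the rhythm to genes of metabolism and detoxification by binding D-box sequences, at which NFIL3 acts as a repressor.

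The bases just upstream of 4 of the genes are shown because they hold the E-box letters CACGTG, through which the activators are known to act. Sequences are from RefSeq (GRCm38.p6), read 5′ to 3′ on the gene's strand, in windows of 250 bases before a gene's start and cut to the part outside annotated exons. Capitals mark the E-box matches and, in Per1, the D-box match TTATGCAA and, in Tef, the match TGACCAA, which is the reverse complement of the REV-ERB and ROR element TNGGTCA. The Ciart window is chr3:95882252-95882478 (reverse strand), that of Per1 is chr11:69098699-69098947 (forward strand), that of Bhlhe41 is chr6:145865559-145865670 (reverse strand) and that of Tef, at the second of its starts, is chr15:81811164-81811413 (forward strand).
Ciart: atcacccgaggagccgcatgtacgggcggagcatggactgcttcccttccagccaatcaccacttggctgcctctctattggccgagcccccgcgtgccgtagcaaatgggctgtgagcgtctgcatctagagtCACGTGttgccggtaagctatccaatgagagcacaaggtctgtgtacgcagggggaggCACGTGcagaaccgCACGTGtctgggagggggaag
Per1: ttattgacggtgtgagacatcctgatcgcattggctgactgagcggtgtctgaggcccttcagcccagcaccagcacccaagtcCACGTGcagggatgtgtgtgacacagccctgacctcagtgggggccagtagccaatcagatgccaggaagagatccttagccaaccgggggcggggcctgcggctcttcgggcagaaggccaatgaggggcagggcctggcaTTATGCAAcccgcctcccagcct
Bhlhe41: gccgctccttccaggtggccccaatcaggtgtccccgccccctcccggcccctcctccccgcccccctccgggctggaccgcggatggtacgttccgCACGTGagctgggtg
Tef: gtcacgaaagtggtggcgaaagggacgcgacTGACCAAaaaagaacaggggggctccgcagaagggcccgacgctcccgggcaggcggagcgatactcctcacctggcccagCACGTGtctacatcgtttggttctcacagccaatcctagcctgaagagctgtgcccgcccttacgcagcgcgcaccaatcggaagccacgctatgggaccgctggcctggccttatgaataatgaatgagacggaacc
Ciart held 3 E-boxes, which begin 116, 58 and 44 bases before the start. On either strand of the whole window, the E-box letters were found in 4 of the 9 genes with a promoter entry (Tef, Per1, Ciart and Bhlhe41). By window, they were found in 5 of the 11 windows of these genes and in 6.02% of all 32851 mouse promoter windows. The E-box variant CACGTT was found in Nr1d1 alone of these genes and in 3.85% of windows. The D-box TTATGNAA was found in Per1 and Per3 and in 3.07% of windows, the element TNGGTCA in Tef and Per3 and in 9.19%, and the cyclic AMP element TGACGTCA in Hlf and in 1.55%. No match in these genes overlapped a match of another motif. These matches describe letters in a short window only, and Per2 had no entry.

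Libraries held between 46456125 and 56541594 reads on listed genes, so that 1 read was worth between 0.0180 and 0.0231 CPM (library-scaled counts after TMM normalization). Markers of kidney cells were found in every library, for example the proximal tubule transporter Slc34a1 at between 2841 and 9452 CPM. Control replicate 2 stood apart from the other controls. Its 4 proximal tubule markers summed to 5000 CPM against 13970 and 12182 in control replicates 8 and 9, and its 5 leukocyte markers to 207 CPM against 35.4 and 45.2. Lyz2 made up 165 of these 207 CPM. Ptprc, Cd3e and Cd68 were also higher there, whereas Cd79a was lower (0.531 CPM against 1.12 and 2.54). Control replicate 9 held 3231 CPM of 10 immediate early genes against 101 to 273 in the other 6 libraries, and DM+SGLT2i replicate 1 held 208 CPM of 3 adipose markers and 98.6 CPM of 4 urothelial markers. Results against the controls are therefore given with and without control replicate 2. In whole kidney, fewer cells of a type and less RNA per cell cannot be told apart.

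Among the PAR bZIP genes, Dbp had the widest range, and all 4 diabetic libraries lay below all 3 controls. Dbp (ENSMUSG00000059824; chr7:45705088-45710203, forward strand, GRCm38) was at 168, 225 and 220 CPM in control replicates 2, 8 and 9. It was at 83.3 and 37.6 CPM in DM-22 replicates 1 and 2, and at 106 and 66.6 CPM in DM+SGLT2i replicates 1 and 2. The 2 diabetic groups overlapped, with DM-22 replicate 2 the lowest of all. The group means were 204 ± 31.1 (SD, n = 3), 60.5 ± 32.3 (SD, n = 2) and 86.3 ± 27.8 CPM (SD, n = 2).

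Tef (ENSMUSG00000022389; chr15:81802421-81826863, forward strand) showed the same order with smaller distances. It was at 258, 400 and 393 CPM in the controls, at 231 and 173 CPM in DM-22 and at 270 and 197 CPM in DM+SGLT2i. Both DM-22 libraries were below the controls, whereas DM+SGLT2i replicate 1 was above control replicate 2. Hlf (ENSMUSG00000003949; chr11:90336536-90390895, reverse strand) was at 101, 193 and 173 CPM in the controls, 84.4 and 153 CPM in DM-22 and 116 and 114 CPM in DM+SGLT2i. Its groups overlapped, and it was the PAR bZIP gene for which DM-22 replicate 2 was not the lowest library.

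The 2 Per genes with values, which encode partners of CRY in the repressor complex, differed in how the controls were spread. Per1 (ENSMUSG00000020893; chr11:69095217-69109960, forward strand) was at 28.3, 47.8 and 90.6 CPM in the controls, 58.7 and 17.8 CPM in DM-22 and 53.9 and 27.3 CPM in DM+SGLT2i. All 3 groups overlapped. Per1 is also known as an immediate early gene, and its highest library, control replicate 9, was the library with the highest immediate early sum. Per2 (ENSMUSG00000055866; chr1:91415982-91459324, reverse strand) was at 16.1, 34.1 and 47.3 CPM in the controls, 15.8 and 14.5 CPM in DM-22 and 15.9 and 11.8 CPM in DM+SGLT2i. All diabetic libraries were below all controls, but control replicate 2 lay just above them and away from the other controls.

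Of the REV-ERB genes, Nr1d2 had all diabetic libraries below the controls and Nr1d1 did not. Nr1d1 (ENSMUSG00000020889; chr11:98767932-98775333, reverse strand) was at 122, 138 and 129 CPM in the controls, 128 and 57.1 CPM in DM-22 and 194 and 93.4 CPM in DM+SGLT2i. The controls were close together and fell between the 2 libraries of DM+SGLT2i. Nr1d2 (ENSMUSG00000021775; chr14:18204054-18239127, reverse strand) was at 112, 162 and 171 CPM in the controls, 106 and 65.4 CPM in DM-22 and 105 and 81.1 CPM in DM+SGLT2i. Control replicate 2 again lay close to the highest diabetic library.

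Ciart and Bhlhe41 had the lowest mean levels of the 9 genes per kb of exon in each group. Ciart (ENSMUSG00000038550; chr3:95878503-95882251, reverse strand) was at 5.88, 12.4 and 15.6 CPM in the controls, 3.76 and 0.948 CPM in DM-22 and 7.85 and 2.55 CPM in DM+SGLT2i. DM-22 lay below the controls without overlap, and DM+SGLT2i overlapped both. Bhlhe41 (ENSMUSG00000030256; chr6:145858243-145865558, reverse strand) was at 16.1, 11.5 and 16.9 CPM in the controls, 11.1 and 4.58 CPM in DM-22 and 17.8 and 7.42 CPM in DM+SGLT2i. Its DM-22 libraries were below the controls, replicate 1 by little, and DM+SGLT2i replicate 1 was the highest library.

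**Figure D1:**
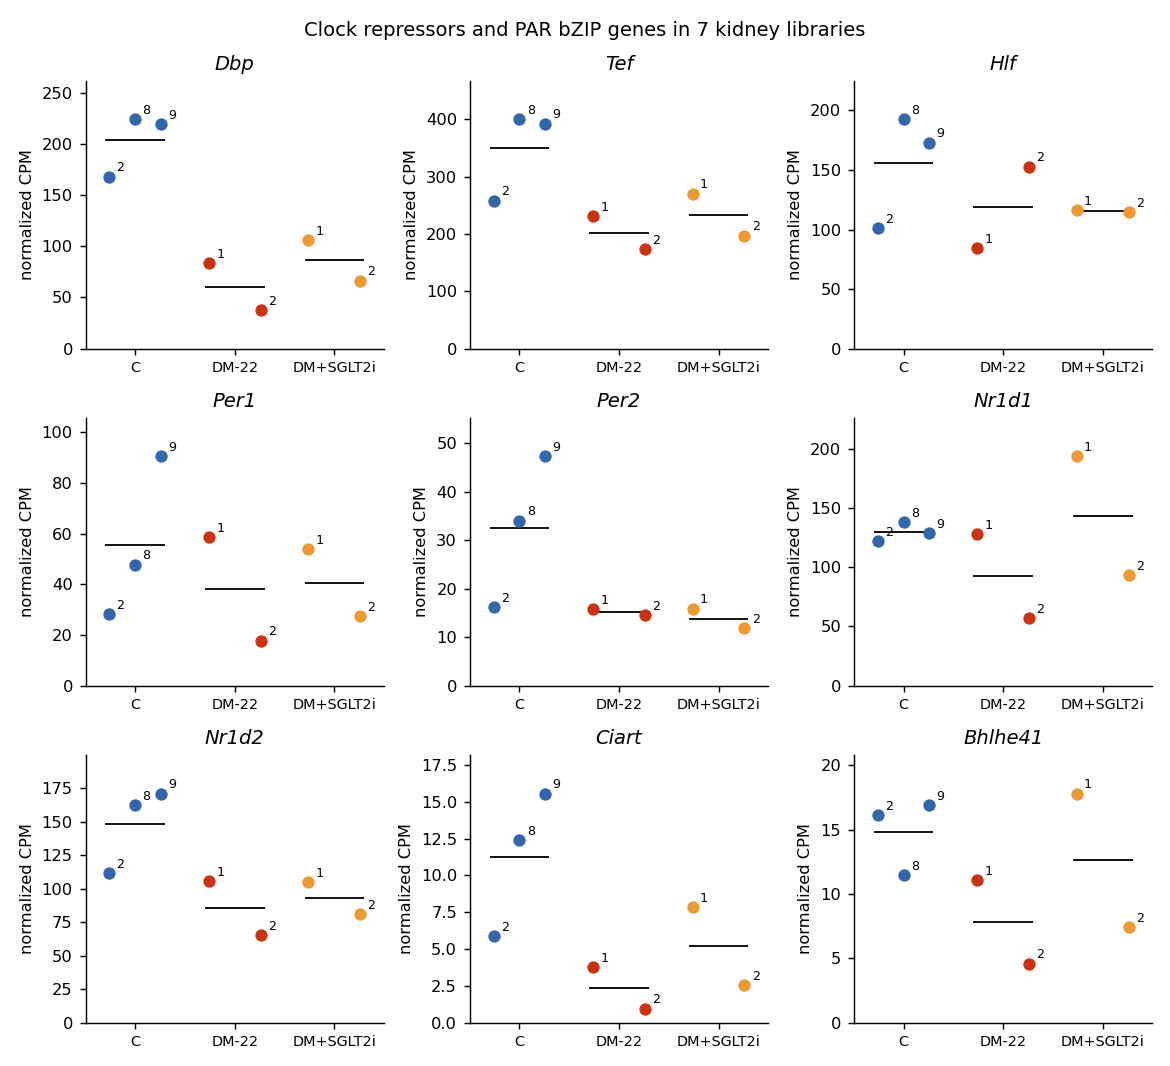
Normalized CPM (linear axis from 0) of the 9 genes in each of the 7 libraries, with replicate numbers beside the points and a line at each group's mean. All diabetic libraries lie below all controls for Dbp, Per2 and Nr1d2, and the 2 libraries of each diabetic group are far apart for Per1, Nr1d1 and Bhlhe41.

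Levels between genes were compared per kb of exon. In the controls Dbp was the highest with a mean level of 68.3 CPM per kb, followed by Tef with 44.5, Nr1d1 with 42.1, Nr1d2 with 27.4 and Hlf with 23.3 CPM per kb. Per1 with 9.86, Per2 with 5.55, Ciart with 4.99 and Bhlhe41 with 2.21 CPM per kb formed the lower part. In DM-22 the order at the top differed, with Nr1d1 at 30.1, Tef at 25.7 and Dbp at 20.2 CPM per kb. In DM+SGLT2i Nr1d1 was at 46.6, Tef at 29.7 and Dbp at 28.8 CPM per kb. On this scale the libraries of Tef and Nr1d1, of Nr1d2 and Hlf, and of Per1, Per2 and Ciart overlapped in the controls, whereas those of Dbp lay above those of Tef. The libraries of Nr1d1, Tef and Dbp overlapped within each diabetic group, so their order there is not beyond the spread.

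Several of these genes varied more over the 7 libraries than most genes, differences between groups included. The log2 difference between the highest and lowest library was 3.47 for Ciart, 2.56 for Dbp and 2.32 for Per1, and a range as large was found in 1.10%, 3.11% and 4.29% of tested genes. Ranges of Per2 (1.96), Bhlhe41 (1.85) and Nr1d1 (1.75) were as large in 7.29%, 8.49% and 9.91% of genes. Nr1d2 (1.38), Tef (1.20) and Hlf (1.18) were nearer to the median gene, whose range was 0.72. Within groups, Per1 and Ciart had the largest spread of the 9, with SDs of 0.91 and 0.90 on the log2 scale against 0.26 for the median gene. DM-22 replicate 2 was the lowest library for 7 of the 9 genes, control replicate 8 was the highest for 3, control replicate 9 for 4 and DM+SGLT2i replicate 1 for 2 (Nr1d1 and Bhlhe41).

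The comparison of DM-22 with C addresses which genes differ under persistent hyperglycaemia. With all 7 libraries, estimates for all 9 genes were below 0, among them Ciart, 4.42-fold lower, and Dbp, 3.59-fold lower. None of the 9 passed the test: 0 of 9 had an adjusted p under 0.05 (limma, Benjamini-Hochberg over all tested genes), as did 0% of all genes. At an unadjusted p under 0.05, 4 of 9 were lower (Dbp, Tef, Nr1d2 and Ciart), against 3.28% of tested genes. The median log2 fold change was -0.81 over the 9 genes and 0.00 over all tested genes, and 49.3% of tested genes had an estimate below 0.

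By gene, log2 fold changes on the log2(CPM + 0.5) scale, DM-22 against C, were -1.85 ± 0.37 (SE) for Dbp and -2.14 ± 0.66 (SE) for Ciart. The estimate of Ciart was -1.36 without DM-22 replicate 2 and -2.92 without DM-22 replicate 1, and that of Dbp -1.28 and -2.41. Tef was at -0.78 ± 0.27 (SE) and Nr1d2 at -0.81 ± 0.28 (SE). The estimate of Nr1d2 was -0.46 without DM-22 replicate 2 and -1.15 without DM-22 replicate 1. The smallest adjusted p of limma among the 9 genes was 0.804, shared by all but Hlf and Per1. The other genes had estimates of -0.98 ± 0.47 (SE) for Bhlhe41, -0.95 ± 0.42 for Per2, -0.61 ± 0.65 for Per1, -0.59 ± 0.41 for Nr1d1 and -0.40 ± 0.35 for Hlf. Without DM-22 replicate 2 the estimate was -0.016 for Nr1d1, -0.39 for Bhlhe41 and 0.24 for Per1. Without control replicate 9 it was -0.18 for Per1 and -0.62 for Per2. For Hlf it was above 0, at 0.029, without DM-22 replicate 1. The count of 4 genes at an unadjusted p under 0.05 was 2 without control replicate 8 (1.75% of genes lower), 2 without control replicate 9 (0.98%) and 1 without DM-22 replicate 2 (2.77%). In 6 genes (Dbp, Tef, Per2, Nr1d2, Ciart and Bhlhe41) both DM-22 libraries were below all 3 controls, an order found in 9.29% of tested genes.

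Without control replicate 2, the estimates against C moved further from 0 for 8 of the 9 genes in DM-22, Bhlhe41 being the exception. Ciart was at -2.53, Dbp at -1.98, Per2 at -1.38, Per1 at -1.01, Tef at -0.98 and Bhlhe41 at -0.91. The smallest adjusted p of limma was then 0.0826 (Per2), followed by 0.0904 (Dbp), so that again 0 of 9 passed, with 0.0143% of all genes called. At an unadjusted p under 0.05, 6 of 9 were lower (Dbp, Tef, Hlf, Per2, Nr1d2 and Ciart), beside 14.8% of tested genes.

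In DM+SGLT2i against C, which asks what differs after glucose was lowered, estimates were below 0 for 8 of 9 genes, as in 52.8% of tested genes. Dbp was 2.40-fold lower and Per2 2.12-fold lower, while Nr1d1 was 1.04-fold higher. No gene passed: the count was 0 of 9 beside 0% of all genes, with every adjusted p of limma at 0.9997. At an unadjusted p under 0.05, 2 of 9 were lower (Dbp and Per2), against 0.415% of tested genes. The log2 fold changes were -1.26 ± 0.37 (SE) for Dbp and -1.09 ± 0.42 (SE) for Per2, and the median over the 9 genes was -0.57 against -0.01 over all tested genes. Ciart was at -1.12 ± 0.66 (SE), Nr1d2 at -0.66 ± 0.28, Tef at -0.57 ± 0.27, Hlf at -0.38 ± 0.35, Per1 at -0.37 ± 0.65, Bhlhe41 at -0.33 ± 0.47 and Nr1d1 at 0.06 ± 0.41. The count of 2 genes was 1 without control replicate 8 (0.25% of genes lower), control replicate 9 (0.129%) or DM+SGLT2i replicate 1 (0.0716%), and 0 without DM+SGLT2i replicate 2 (0.465%). Over all settings the estimate of Ciart lay between -1.85 and -0.39. The ranges of Per1 (-0.97 to 0.12), Nr1d1 (-0.47 to 0.58) and Bhlhe41 (-0.93 to 0.28) held 0.

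Both DM+SGLT2i libraries were below all controls for 3 of the 9 genes (Dbp, Per2 and Nr1d2), an order found in 6.59% of tested genes. For the same 3 genes all 4 diabetic libraries were below all 3 controls, as in 1.38% of tested genes. Without control replicate 2, 4 of 9 genes were lower at an unadjusted p under 0.05 (Dbp, Tef, Per2 and Nr1d2) beside 9.14% of tested genes. Again 0 of 9 had an adjusted p under 0.05, with 0.122% of all genes called. The smallest adjusted p of limma was 0.0778, for Per2 at -1.52, and Dbp was at -1.40 with an adjusted p of 0.176. Both comparisons against C share the control libraries, so their estimates are not independent of each other.

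Between the diabetic groups, DM+SGLT2i estimates were above those of DM-22 for 8 of 9 genes, Per2 excepted, and none passed the test. The log2 fold changes were 1.02 ± 0.72 (SE) for Ciart, 0.65 ± 0.45 for Nr1d1, 0.65 ± 0.52 for Bhlhe41, 0.58 ± 0.40 for Dbp, 0.24 ± 0.72 for Per1, 0.21 ± 0.29 for Tef, 0.15 ± 0.31 for Nr1d2, 0.02 ± 0.38 for Hlf and -0.14 ± 0.46 for Per2. Over all settings, the estimates lay between 0.24 and 1.80 for Ciart, 0.072 and 1.23 for Nr1d1, 0.048 and 1.26 for Bhlhe41 and 0.012 and 1.15 for Dbp. The ranges of Per1 (-0.61 to 1.09), Hlf (-0.41 to 0.45), Nr1d2 (-0.20 to 0.49), Tef (-0.021 to 0.43) and Per2 (-0.34 to 0.068) held 0. No gene passed at an adjusted p under 0.05 (0 of 9, smallest 0.881 by limma, 0% of all genes). At an unadjusted p under 0.05, 0 of 9 were lower and 0 of 9 higher, against 1.66% and 2.25% of tested genes. With the replicate number fitted as a block, 4 of 9 were higher at that threshold, against 3.84% of tested genes. No gene had both DM+SGLT2i libraries above both DM-22 libraries (0 of 9, against 21.4% of tested genes). For each gene the 2 diabetic groups therefore overlapped.

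**Figure D2:**
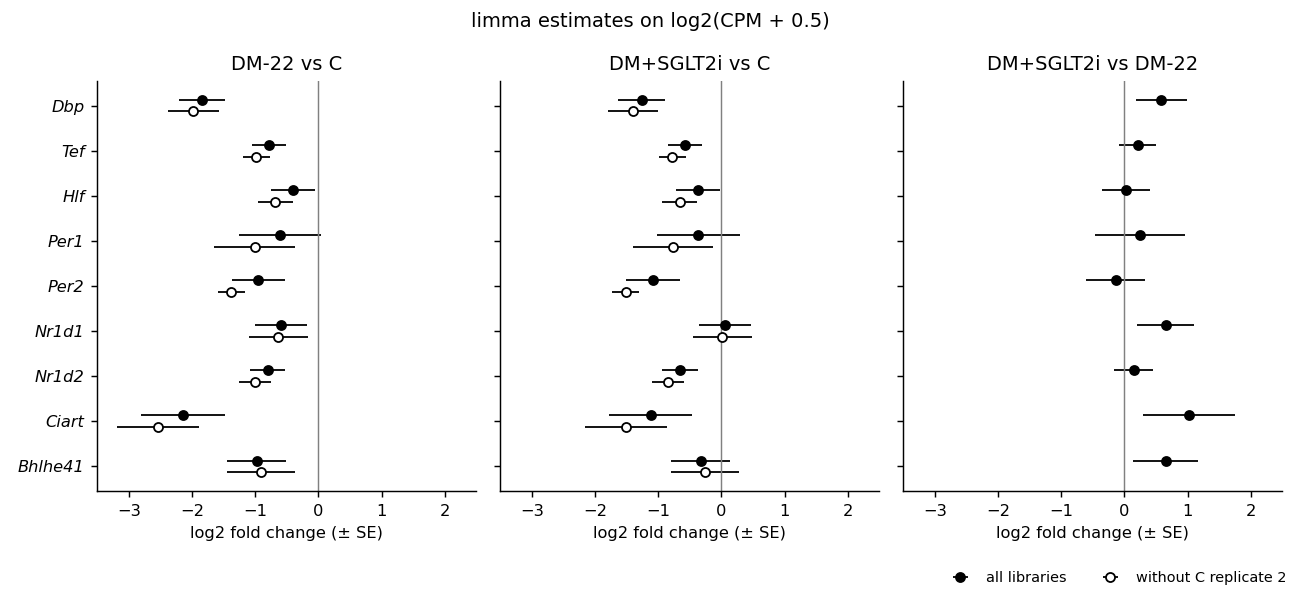
log2 fold change (x axis, ± SE, limma on log2(CPM + 0.5)) of the 9 genes in the 3 comparisons, with filled points for all 7 libraries and open points for the fit without control replicate 2. Estimates against C lie below 0 except for Nr1d1 in DM+SGLT2i, and the estimates between the diabetic groups have standard errors of 0.29 to 0.72.

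The activators of the loop were read from a list of 7 genes, of which 6 passed the filter. Arntl, the activator that REV-ERB proteins repress, was at 1.21, 1.77 and 1.62 CPM in the controls, 6.48 and 19.4 CPM in DM-22 and 5.07 and 8.69 CPM in DM+SGLT2i. Its diabetic libraries were all above the controls. The log2 fold change of Arntl was 2.54 ± 0.47 (SE; limma, adjusted p = 0.804) in DM-22 and 1.82 ± 0.47 (SE; limma, adjusted p = 0.9997) in DM+SGLT2i. Npas2, the partner that can replace CLOCK, was at 1.61, 3.37 and 2.46 CPM in the controls, 4.19 and 13.2 CPM in DM-22 and 6.65 and 7.24 CPM in DM+SGLT2i, also without overlap. These were the 2 activators higher at an unadjusted p under 0.05 in both comparisons with C, against 1.19% of tested genes in DM-22 and 0.665% in DM+SGLT2i, and none of the 6 passed the adjusted test. All 4 diabetic libraries lay above all controls in 1.31% of tested genes. With control replicate 2 left out, Npas2 no longer passed the unadjusted threshold in DM+SGLT2i. Rora was then lower at that threshold in DM-22, beside 14.8% of tested genes, and in DM+SGLT2i, beside 9.14%. Clock itself lay between 87.7 and 118 CPM over all libraries.

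Dbp and Arntl were set side by side in each library, since they are known to peak at opposite times. The ratio of Dbp to Arntl in CPM was 139, 127 and 135 in the controls, 12.9 and 1.94 in DM-22 and 20.9 and 7.67 in DM+SGLT2i. Among the 4 diabetic libraries, the order of Arntl from high to low (DM-22 replicate 2, DM+SGLT2i replicate 2, DM-22 replicate 1, DM+SGLT2i replicate 1) was the exact reverse of that of Dbp. Among the controls it was not, as replicate 2 was the lowest for both genes. The libraries formed separate clusters on Arntl, with the controls at 1.21 to 1.77 CPM and the diabetic libraries at 5.07 to 19.4 CPM, so no correlation was computed.

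**Figure D3:**
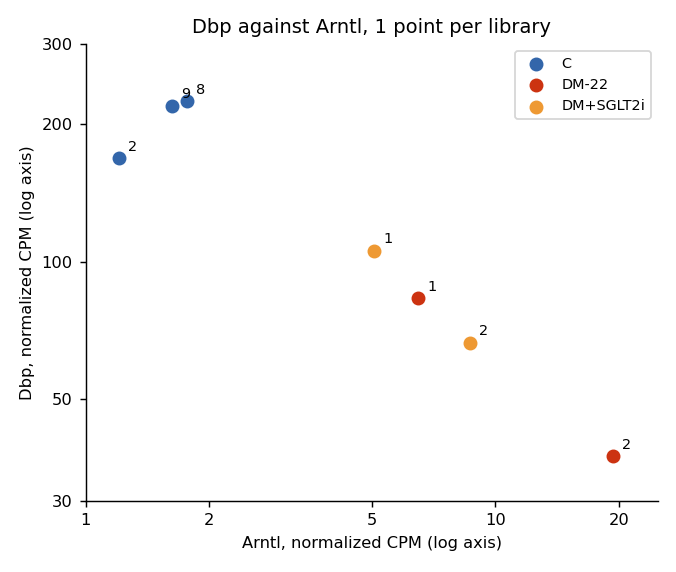
Dbp against Arntl in normalized CPM, both axes logarithmic, 1 point per library with its replicate number. The 3 controls sit at upper left (Arntl 1.21 to 1.77 CPM) apart from the 4 diabetic libraries, which run from DM+SGLT2i replicate 1 down to DM-22 replicate 2.

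The other repressors (4 of 4 tested) differed among themselves. Nfil3, the repressor at D-boxes, was at 3.63, 3.31 and 2.99 CPM in the controls, 5.29 and 13.9 CPM in DM-22 and 4.48 and 7.61 CPM in DM+SGLT2i, and its estimate for DM-22 against C was 1.26 ± 0.41 (SE). Cry2, a partner of PER, was at 28.3, 35.2 and 38.9 CPM in the controls, 23.8 and 20.4 CPM in DM-22 and 32.1 and 23.4 CPM in DM+SGLT2i, which overlapped the controls, and its estimate for DM-22 was -0.61 ± 0.21 (SE). Both had an unadjusted p under 0.05 in DM-22, beside 1.19% of tested genes higher and 3.28% lower. Neither passed the adjusted test (limma, adjusted p = 0.804 for each). Cry1, the other cryptochrome, was at 5.22, 3.39 and 5.04 CPM in the controls. It was at 7.58 and 5.55 CPM in DM-22 and at 2.76 and 4.97 CPM in DM+SGLT2i. DM-22 thus lay above both other groups, with an estimate against C of 0.49 ± 0.31 (SE; limma, adjusted p = 0.804). Such orders were common, as 10.8% of tested genes had DM-22 above C without overlap and 20.05% had DM+SGLT2i below DM-22. Bhlhe40, the paralog of Bhlhe41, was at 129, 127 and 252 CPM in the controls, 169 and 91.3 CPM in DM-22 and 104 and 84.0 CPM in DM+SGLT2i, with its highest value in control replicate 9.

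**Figure D4:**
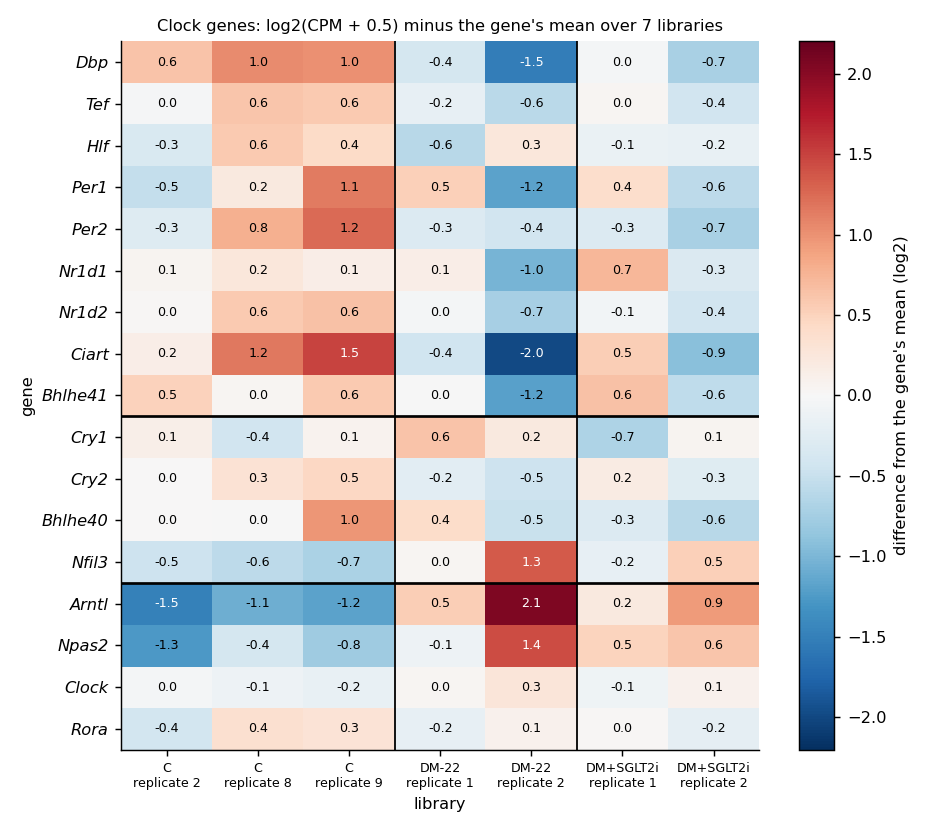
log2(CPM + 0.5) of the clock genes minus each gene's mean over the 7 libraries, printed in each cell, with the 9 genes described here above the first black line, other repressors between the lines and activators below. DM-22 replicate 2 has the lowest values of most upper rows and the highest of Arntl, Npas2 and Nfil3.

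Genes downstream of the loop were read from lists of known roles. Calls at an unadjusted p under 0.05 without control replicate 2 are to be read against the share of all tested genes, which was 10.4% higher and 14.8% lower in DM-22 and 8.73% higher and 9.14% lower in DM+SGLT2i. With all 7 libraries the share was 1.19% higher and 3.28% lower in DM-22 and 0.665% higher and 0.415% lower in DM+SGLT2i. Of 5 known PAR bZIP targets, 4 passed the filter (Nr1i3, the nuclear receptor CAR, did not) and 0 of 4 had an unadjusted p under 0.05 against all 3 controls in either diabetic group, with median log2 fold changes of -0.17 and 0.01. Without control replicate 2, Por and Ppara were lower in DM-22 and Pdxk was higher in DM+SGLT2i at that threshold, and the medians were -0.21 in both groups. Por, the electron donor of cytochrome P450 enzymes, was at 384.7, 506 and 456 CPM in the controls, 324 and 384.5 CPM in DM-22 and 412 and 388 CPM in DM+SGLT2i. DM-22 thus lay below both other groups, by a small margin for replicate 2. Of tested genes, 9.29% had DM-22 below C without overlap and 21.4% had DM+SGLT2i above DM-22. Of 7 rhythmic kidney genes, Usp2, a ubiquitin protease, was the 1 gene with an unadjusted p under 0.05 in DM-22, at 157, 219 and 243 CPM in the controls against 147 and 133 CPM (log2 fold change of -0.53 ± 0.21, SE). Without control replicate 2, Edn1, Scnn1a and Avpr2 were also past that threshold in DM-22, as higher, Scnn1a and Avpr2 were higher and Usp2 lower in DM+SGLT2i, and the median of the list in DM-22 was 0.76 in place of 0.38. None of the 8 kinases and ubiquitin ligases that act on clock proteins had an unadjusted p under 0.05 in any of the 3 comparisons with all 7 libraries, while Fbxl21 was lower in both diabetic groups without control replicate 2. Of 8 glucocorticoid-responsive genes, Fkbp5, a chaperone of the hormone's receptor, was higher in DM-22 at an unadjusted p under 0.05 (0.52 ± 0.19 on the log2 scale, SE) and Tsc22d3 (GILZ) lower in DM+SGLT2i (-0.42 ± 0.17). With control replicate 2 left out, Fkbp5 no longer passed that threshold and Tsc22d3 did. Mt2 was then higher and Errfi1 lower in both diabetic groups, and Klf9 lower in DM-22. No gene of these lists passed the adjusted test.

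The genes whose pattern was most like that of 3 of the members were found by the root mean square difference of centred log2(CPM + 0.5) over the 7 libraries. For Dbp, whose own deviation was 0.88, these were Ppic (0.39), Ciart (0.39), Zfp950 (0.41), Zc3h6 (0.43) and Ints6l (0.45). For Per2 (own deviation 0.67) they were Gt(ROSA)26Sor (0.14), BC065397 (0.17), Gm15675 (0.17) and Cyp2j7 (0.18). For Nr1d1 (own deviation 0.50) they were Slc25a53 (0.11), Inpp4b (0.15), Slc10a6 (0.17), Fat4 (0.18) and Lca5l (0.18). Ciart was the member of the set that appeared in these lists.

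Other measures also varied over the libraries, in part within the groups. The 4 nuclear-retained RNAs, used as a sign of RNA quality, summed to 94.8, 460 and 630 CPM in the controls, 71.2 and 59.2 CPM in DM-22 and 211 and 92.9 CPM in DM+SGLT2i. Malat1 and Neat1 were lower in DM-22 at an unadjusted p under 0.05 (log2 fold changes of -2.24 ± 0.92 and -2.25 ± 0.73, SE), beside 3.28% of tested genes. Malat1, Kcnq1ot1 and Meg3 were lowest in DM-22 replicate 1. Neat1 was lowest in DM-22 replicate 2, the library in which 7 of the 9 genes were lowest. The immediate early genes, 8 of 10 tested, had estimates below 0 in both diabetic groups against C (medians of -1.59 and -1.69), with 0 of 8 at an unadjusted p under 0.05. Those medians were -0.27 and -0.49 without control replicate 9, with 6 and 8 of the 8 estimates below 0. Without control replicate 2, Malat1, Neat1 and Kcnq1ot1 were lower in both diabetic groups at that threshold, Jun was lower in both and Dusp1 in DM+SGLT2i, and the red-cell gene Alas2 was higher in both. Of the 5 leukocyte genes in that fit, Cd68 and Lyz2 were higher in both groups and Cd79a was lower in DM+SGLT2i at the same threshold, with medians over the list of 0.07 in DM-22 and 0.28 in DM+SGLT2i. In that fit 14.8% of tested genes were lower and 10.4% higher in DM-22, and 9.14% and 8.73% in DM+SGLT2i. The 5 leukocyte markers summed to 94.5 and 54.2 CPM in DM-22 and to 105 and 124 CPM in DM+SGLT2i, below the 207 CPM of control replicate 2 and above the other controls. Of these sums, Lyz2 alone was 77.4 and 36.5 CPM in DM-22 and 79.2 and 102 CPM in DM+SGLT2i. The part of these in the estimates of the clock genes was not tested.

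Sums of kidney cell markers varied within the groups in which Dbp was low. The 4 proximal tubule markers summed to 5085 and 13885 CPM in DM-22 and to 9085 and 8619 CPM in DM+SGLT2i, and the 2 markers of the thick ascending limb to 5752, 3878 and 3410 CPM in the controls, 12513 and 2939 CPM in DM-22 and 4477 and 6613 CPM in DM+SGLT2i. The 4 collecting duct markers summed to 671, 308 and 304 CPM in the controls, 819 and 384 CPM in DM-22 and 340 and 670 CPM in DM+SGLT2i. In DM-22 replicates 1 and 2, Aqp2 was at 640 and 167 CPM and Slc4a1 at 112 and 87.0 CPM. Scnn1g (40.1 and 68.8 CPM) and Atp6v1g3 (26.9 and 62.0 CPM) went the other way. With all 7 libraries, the median log2 fold changes of the collecting duct markers against C were 0.32 in DM-22 and 0.17 in DM+SGLT2i. Those of the proximal tubule markers were -0.19 and -0.00063, with 3 of 4 and 2 of 4 estimates below 0. With control replicate 2 left out, all 4 collecting duct markers had estimates above 0 in both diabetic groups (medians of 0.71 and 0.55). All 4 proximal tubule markers then had estimates below 0 (medians of -0.56 in both). Adipose sums were 1.01 to 9.62 CPM in the controls, 0.846 and 0.393 CPM in DM-22 and 208 and 1.86 CPM in DM+SGLT2i, and urothelial sums were 1.69 to 37.5, 1.06 to 9.59 and 2.15 to 98.6 CPM in the 3 groups, with no marker of either list at 0. Of the adrenal markers, 3 of 4 were listed. Cyp11a1 lay between 0 and 0.144 CPM, Star between 0.301 and 1.37 CPM and Hsd3b1 between 0.715 and 2.35 CPM. Star and Hsd3b1 had estimates below 0 in both diabetic groups against C, neither at an unadjusted p under 0.05. Without control replicate 2, Star was lower in DM-22 and Hsd3b1 in DM+SGLT2i at that threshold, beside 14.8% and 9.14% of tested genes. The part of the cell makeup in the values of Nr1d1 and Bhlhe41, which were highest in DM+SGLT2i replicate 1, was not tested.

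Some of these genes share bases with a gene on the opposite strand. The library kit marks strand, but whether counting used it is not stated. Dbp shares 737 bases with Sphk2, which was at 40.4 to 44.2 CPM in the controls, 71.1 and 55.0 CPM in DM-22 and 49.6 and 54.4 CPM in DM+SGLT2i, in the opposite order of groups to Dbp. Nr1d1 shares 1075 bases with Thra, at 77.4 to 82.8 CPM in the controls and 89.6 to 120 CPM in the diabetic libraries. The antisense gene C920021L13Rik covers all 3749 bases of Ciart and lay between 1.70 and 2.76 CPM in every library, which is above the 0.948 CPM of Ciart in DM-22 replicate 2.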

How the data were processed

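Polyadenylated RNA of mouse kidney was sequenced in 7 libraries, grouped by their labels. Per the labels, the authors used bcl2fastq, FastQC, Trim Galore, STAR and edgeR with build mm10. The authors deposited log2 values of TMM-normalized CPM, counts scaled by library, to which a constant averaging 1.98 reads had been added, as the floor of -4.66 shows. All 7 value columns were used. CPM were recovered by subtracting the floor on the linear scale, and recovered reads were whole within 0.05.

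For genes reaching 1 CPM in 2 or more libraries, limma 3.58.1 (lmFit, eBayes with trend; R 4.3.3) was run on log2(CPM + 0.5), a scale that understates changes of low genes. The 3 groups were fitted together, p-values are two-sided and Benjamini-Hochberg adjusted, and the threshold was 0.05. The code was tested on simulated data. Named genes are all members, with gene lists by role and by cell type given as counts and examples. Members and lists were chosen with earlier results of these data known. Likeness lists hold the 5 nearest genes. Some genes of the lists are not reported here. Exon lengths and positions are from GENCODE M21, motifs were searched on both strands and figures drawn in Python 3.11.15. Alternatives covered pseudocounts, filter, scaling, weights, sets of libraries and a replicate block. The planned correlation with Arntl was not computed because libraries clustered on Arntl.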

Additional observations from a re-analysis of the deposited data

How the results depend on the processing

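No gene of the set had an adjusted p under 0.05 in any comparison under any of the 14 alternative settings of each. Over these settings the adjusted p-values of limma lay between 0.0826 and 0.9998 for DM-22 against C, between 0.0698 (sample weights) and 0.99999 for DM+SGLT2i against C, and between 0.734 and 0.9999 for DM+SGLT2i against DM-22. The count of genes at an unadjusted p under 0.05 was, like the voom weights, added after the data were seen. In DM-22 against C these genes numbered 6 without control replicate 2 (25.2% of all genes). They numbered 2 without control replicate 8 (2.2%) and 2 without control replicate 9 (1.19%). In DM+SGLT2i against C they numbered 6 with sample weights (29.4% of all genes) and 1 with voom weights (1.06%). They numbered 4 without control replicate 2 (17.9%), 1 without control replicate 8 (0.594%) and 1 without control replicate 9 (0.336%). In DM+SGLT2i against DM-22 they numbered 0 to 2 with libraries left out (0.386% to 5.85%) and 4 with the replicate block (4.98%), against 0 without it (3.91%). The block left the median at 0.24. That median lay between 0.0097 and 1.09 with libraries left out.

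Signs of single genes turned in 13 refits and were kept in 365. All 13 had 1 library left out. Where this left a group with 1 library, the fit assumes that it varies like the other groups. With 1 library left out, the ranges of log2 fold change were -0.82 to 0.029 (Hlf) and -1.46 to 0.24 (Per1) for DM-22 against C. They were -0.85 to 0.12 (Per1), -0.47 to 0.58 (Nr1d1) and -0.93 to 0.28 (Bhlhe41) for DM+SGLT2i against C. Between the diabetic groups they were -0.021 to 0.43 (Tef), -0.41 to 0.45 (Hlf), -0.61 to 1.09 (Per1), -0.34 to 0.068 (Per2) and -0.20 to 0.49 (Nr1d2). The causes were not tested. With a pseudocount of 2 CPM, Ciart was at -1.61 and Dbp at -1.82 in DM-22 against C. Each group held 2 or 3 libraries, and the part of the hour of sampling in these values was not tested.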

Other observations

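For 8 of the 9 genes, Hlf excepted, replicate 1 of both diabetic groups lay above replicate 2 of both, an order found in 12.8% of tested genes. The sources used here do not say that these numbers mark anything the mice shared, and over all tested genes the deviations of same-numbered libraries had a correlation of -0.0412.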
